A study of Mus musculus with 8 samples.

Results

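The immediate early AP-1 and EGR genes Fos, Fosb, Jun, Junb, Jund, Egr1, Egr2, Egr3, Atf3 and Ier2 were followed in CD11c-positive spleen cells of lupus-prone and control mice. They were taken by gene name from the deposited count table, and all 10 were among its 13786 protein-coding genes. RNA was sequenced from 4 C57BL/6 control mice and 4 B6.SLE123 mice, all female, 7 weeks old and without treatment. B6.SLE123 mice carry lupus susceptibility intervals of another strain on the C57BL/6 background. Cells were selected on CD11c, the product of Itgax, which dendritic cells carry and which some macrophages and B cells carry too. The genotype label of each strain rises by 1 from mouse to mouse, giving strain names that the study does not use, so each mouse was placed by its sample name.

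Immediate early genes are switched on within minutes of a stimulus by transcription factors that are already present, without new protein synthesis. Their products are mostly transcription factors. Fos and Jun proteins pair through leucine zippers to form AP-1, and EGR proteins bind GC-rich DNA through zinc fingers. In myeloid cells these genes answer growth factors, microbial products and adhesion, and they also react to the handling of tissue while cells are being isolated. The time and temperature of isolation are not given in the sources used here, and their part in the values was not tested.

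RefSeq promoter windows, here the 250 bases before an annotated start in GRCm38.p6 (the mm10 build), were found by symbol for 7 of the 10 genes. The windows of Fos, Jun and Egr2 are shown because these genes were more than 2-fold lower in B6.SLE123 mice, and that of Atf3 because its level did not pass the test between the strains. Fos lies on the plus strand at chr12:85473640-85473889, Jun on the minus strand at chr4:95052223-95052472, Egr2 on the plus strand at chr10:67537619-67537868 and Atf3 on the minus strand at chr1:191183334-191183583. The Fos and Jun windows end next to the start of the gene in the count table, whereas those of Egr2 and Atf3 lie inside the gene, before the start of a shorter transcript. The window of Jund, not printed, ends 1211 bases before the start of that gene in the count table. Sequences run 5′ to 3′ and capitals mark the CArG box, the binding motif of serum response factor, and TGACG, part of the motif bound by CREB and ATF proteins.
Fos: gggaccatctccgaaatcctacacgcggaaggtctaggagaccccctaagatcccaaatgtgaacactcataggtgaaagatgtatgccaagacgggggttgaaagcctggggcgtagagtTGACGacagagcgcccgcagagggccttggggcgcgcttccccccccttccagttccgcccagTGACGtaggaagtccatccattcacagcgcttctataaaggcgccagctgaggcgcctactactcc
Jun: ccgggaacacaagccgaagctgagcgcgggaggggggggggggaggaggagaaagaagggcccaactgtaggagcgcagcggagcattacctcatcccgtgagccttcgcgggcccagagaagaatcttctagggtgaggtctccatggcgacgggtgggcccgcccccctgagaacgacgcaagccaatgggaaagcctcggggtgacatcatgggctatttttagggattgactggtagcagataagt
Egr2: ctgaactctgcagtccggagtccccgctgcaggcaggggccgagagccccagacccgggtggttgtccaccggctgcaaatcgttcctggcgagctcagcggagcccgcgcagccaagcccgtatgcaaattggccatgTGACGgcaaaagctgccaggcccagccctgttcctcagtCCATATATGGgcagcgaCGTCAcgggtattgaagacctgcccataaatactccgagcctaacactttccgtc
Atf3: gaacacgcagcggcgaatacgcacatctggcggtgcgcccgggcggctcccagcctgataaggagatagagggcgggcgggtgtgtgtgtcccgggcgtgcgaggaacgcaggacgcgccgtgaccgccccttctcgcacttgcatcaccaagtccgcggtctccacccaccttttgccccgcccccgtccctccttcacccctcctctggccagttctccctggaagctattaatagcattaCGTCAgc

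A CArG box was found on either strand in 4 of 5 windows of Egr2. None was found for Fos, Fosb, Jun, Junb, Jund or Atf3, and 1.47% of 32851 windows of all genes held one. The Egr2 windows starting at 67537619, 67537620 and 67537680 overlap and hold the same box, so these matches are not separate sites. The window at the start of Egr2 in the count table (67535249 to 67535498), not printed, holds neither a CArG box nor TGACG. The one starting at 67537316 holds a CArG box but no TGACG. In the window printed above the box spans the bases from 72 to 63 before the start. The letters TGACG, a motif added after the sequences had been read, stood in windows of 5 of the 7 genes (Fos, Fosb, Junb, Egr2 and Atf3) and in 17.8% of all windows. The first count is by gene, with 5 windows for Egr2, and the share is by window, so they are not on the same scale. TGACG occurs in Fos from 66 to 62 and from 129 to 125 bases before the start, and in Atf3 from 7 to 3 bases before it. The full palindrome TGACGTCA, which contains TGACG, the AP-1 motif TGANTCA and the EGR motif GCGTGGGCG were found in none of the 7 genes' windows, and in 1.55%, 6.75% and 0.536% of all windows. These matches describe letters in a short window and do not show binding. Only the 250 bases before a start were searched for exact letters, so a missing match does not mean a missing site. Egr1, Egr3 and Ier2 had no window and were not searched.

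Of the 10 immediate early genes, 6 passed the test at 0.05 after adjustment as lower in B6.SLE123 mice, 1 passed as higher and 3 did not pass. Egr1, Fos, Jun and Egr2 fell more than 2-fold, Ier2 and Junb fell less, and Egr3 rose. Fosb, Jund and Atf3 did not pass the test. Levels are CPM, each gene's share of the library's counts on a common scale, after scaling by the trimmed mean of M values, and the test is edgeR's quasi-likelihood F test with Benjamini-Hochberg adjustment over all 13786 genes. The strains differed widely: 53.4% of all genes passed, 26.6% lower and 26.7% higher in B6.SLE123 mice. A change of more than 2-fold was found for 11.1% of all genes and a fall of more than 2-fold for 8.29%, beside 4 of the 10 immediate early genes. The median log2 fold change of the 10 genes (B6.SLE123 over C57BL/6) was -0.83, beside -0.002 for all genes. The strains did not overlap for 7 of the 10 genes, beside 48.9% of all genes. In whole preparations, fewer cells of a type that makes these transcripts and less transcript per cell cannot be told apart.

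**Figure D1:**
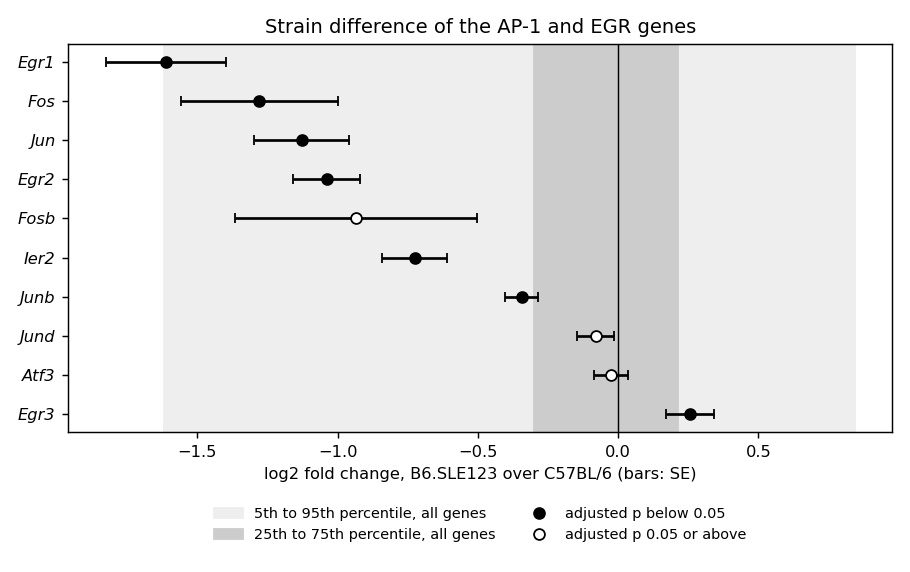
Log2 fold change (B6.SLE123 over C57BL/6, x axis) of the 10 genes with its standard error, filled where the adjusted p was below 0.05, over the percentile ranges of all 13786 genes. Egr1 lies lowest at -1.61 and Egr3 highest at 0.26, while Jund and Atf3 sit near 0.

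Each preparation gave between 25563070 and 37367094 counts, and the mice of a strain differed by more than sampling noise (chi-square per degree of freedom from 4.96 to 18.9). The labels name the cells dendritic cells. Listed markers of type 1 and type 2 conventional dendritic cells were in the count table in full, 8 of 8 each. So were 15 of 15 markers of red pulp macrophages. The same held for B cells (10), monocytes (9), plasmacytoid dendritic cells, NK cells and erythroid cells (8 each). Of neutrophil and T cell markers, 7 of 8 each were in it. The table keeps any gene whose larger strain median was at least 5 counts, so presence alone does not tell which cells were there. All 15 macrophage markers were lower in B6.SLE123 mice, and their summed level was from 14590 to 18780 CPM in C57BL/6 mice and from 2199 to 4232 CPM in B6.SLE123 mice, with no marker at 0 in every mouse. Its part in the change of the immediate early genes was not tested.

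Among the Fos genes, Fos was the more abundant and fell. It encodes c-Fos, which binds DNA only when paired with a Jun protein. Fos was at 224, 191, 146 and 136 CPM in C57BL/6 mice (replicates 1 to 4) and at 70.1, 69.9, 112 and 34.6 CPM in B6.SLE123 mice. The ranges of the strains did not meet, although B6.SLE123 replicate 3 came close to the lowest controls and replicate 4 lay far below the others of its strain. The means were 174 ± 41.1 and 71.5 ± 31.4 CPM (SD, n = 4 mice each), a log2 fold change of -1.28 (SE 0.28, adjusted p = 0.00282 by edgeR's quasi-likelihood test). Its adjusted p stayed below 0.05 in all 8 fits that left out a mouse, with log2 fold changes from -1.57 to -1.07.

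Fosb, a relative of Fos that can pair with the same Jun proteins, did not pass. It was at 38.0, 32.4, 18.6 and 12.5 CPM in C57BL/6 mice and at 13.3, 10.7, 23.8 and 4.49 CPM in B6.SLE123 mice. The strains overlapped, since B6.SLE123 replicate 3 was above replicates 3 and 4 of C57BL/6 and B6.SLE123 replicate 1 was above C57BL/6 replicate 4. The log2 fold change was -0.93 with a standard error of 0.43 (adjusted p = 0.0891, edgeR's quasi-likelihood test). The call rested on single mice: without C57BL/6 replicate 4 the adjusted p was 0.0432 (log2 fold change -1.17) and without B6.SLE123 replicate 3 it was 0.0156 (log2 fold change -1.39), both by edgeR's test.

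The Jun genes differed in how far they moved. Jun encodes c-Jun, which can pair with Fos proteins or with itself, and it fell most of the Jun genes in these fits. Its values were 311, 299, 218 and 210 CPM in C57BL/6 mice and 132, 121, 139 and 82.5 CPM in B6.SLE123 mice, with no overlap and a wide gap between the strains. The log2 fold change was -1.13 (SE 0.17, adjusted p = 0.00023, edgeR's test). Junb, a Jun protein that often restrains c-Jun, was the most abundant of the 10 genes per length, at 163 ± 11.2 CPM divided by exonic length in kilobases (RPKM) in C57BL/6 mice and 128 ± 7.29 RPKM in B6.SLE123 mice (SD, n = 4). It was at 408, 382, 351 and 358 CPM against 302, 278, 316 and 285 CPM, a small fall without overlap (log2 fold change -0.34, SE 0.06, adjusted p = 0.000532, edgeR's test). Jund, the member of the family that is expressed most evenly in resting cells, was at 52.6, 48.5, 47.0 and 47.9 CPM against 51.6, 46.7, 45.6 and 41.3 CPM. These ranges overlapped, and its log2 fold change of -0.08 (SE 0.07) did not pass (adjusted p = 0.335, edgeR's test). Jun and Jund overlap antisense genes, and Junb shares 351 bp with Prdx2 on the other strand. Prdx2 had a log2 fold change of 0.02 (adjusted p = 0.866, edgeR's test), and the strand setting of the counting is not given in the sources used here.

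The EGR genes moved in opposite directions. Egr1, the zinc finger factor that responds to growth factors and mechanical stimuli in many cells, had the largest fall of the 10 genes. It was at 109, 108, 68.7 and 58.2 CPM in C57BL/6 mice and at 29.1, 28.2, 34.5 and 19.96 CPM in B6.SLE123 mice. The lowest control was well above the highest B6.SLE123 mouse, and the controls fell into a higher and a lower pair. The log2 fold change was -1.61 (SE 0.21, adjusted p = 9.85e-05, edgeR's test). Egr2, known in myeloid cells and lymphocytes as a brake on activation, was low in both strains, at 8.06, 8.56, 7.53 and 6.29 CPM against 3.32, 3.82, 3.61 and 4.05 CPM. It fell without overlap and with less spread between mice than Egr1 (log2 fold change -1.04, SE 0.12, adjusted p = 3.39e-05, edgeR's test).

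Egr3, which shares many targets with Egr2, was the only one of the 10 genes to rise. It was at 22.4, 23.2, 21.9 and 20.9 CPM in C57BL/6 mice and at 28.6, 29.8, 23.4 and 23.7 CPM in B6.SLE123 mice. The strains did not overlap, but B6.SLE123 replicates 3 and 4 lay just above the highest control. The log2 fold change was 0.26 (SE 0.08, adjusted p = 0.0253, edgeR's test). This call was lost without C57BL/6 replicate 3 or 4 or B6.SLE123 replicate 1 or 2, with adjusted p = 0.0564, 0.0787, 0.0711 and 0.0844 (edgeR's test) and log2 fold changes of 0.25, 0.22, 0.21 and 0.18.

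Atf3 encodes a stress-induced factor of the ATF family that restrains inflammatory genes in macrophages and dendritic cells. Its 8 values were the most even of the set, at 14.2, 15.8, 15.3 and 15.1 CPM in C57BL/6 mice and 15.2, 15.3, 14.1 and 14.6 CPM in B6.SLE123 mice. The ranges overlapped almost fully and the log2 fold change was -0.02 (SE 0.06, adjusted p = 0.757, edgeR's test). Ier2, an immediate early gene whose product is found in the nucleus, was at 90.6, 79.2, 72.2 and 71.8 CPM against 52.9, 41.2, 56.0 and 39.4 CPM. It fell without overlap (log2 fold change -0.73, SE 0.12, adjusted p = 0.000357, edgeR's test).

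**Figure D2:**
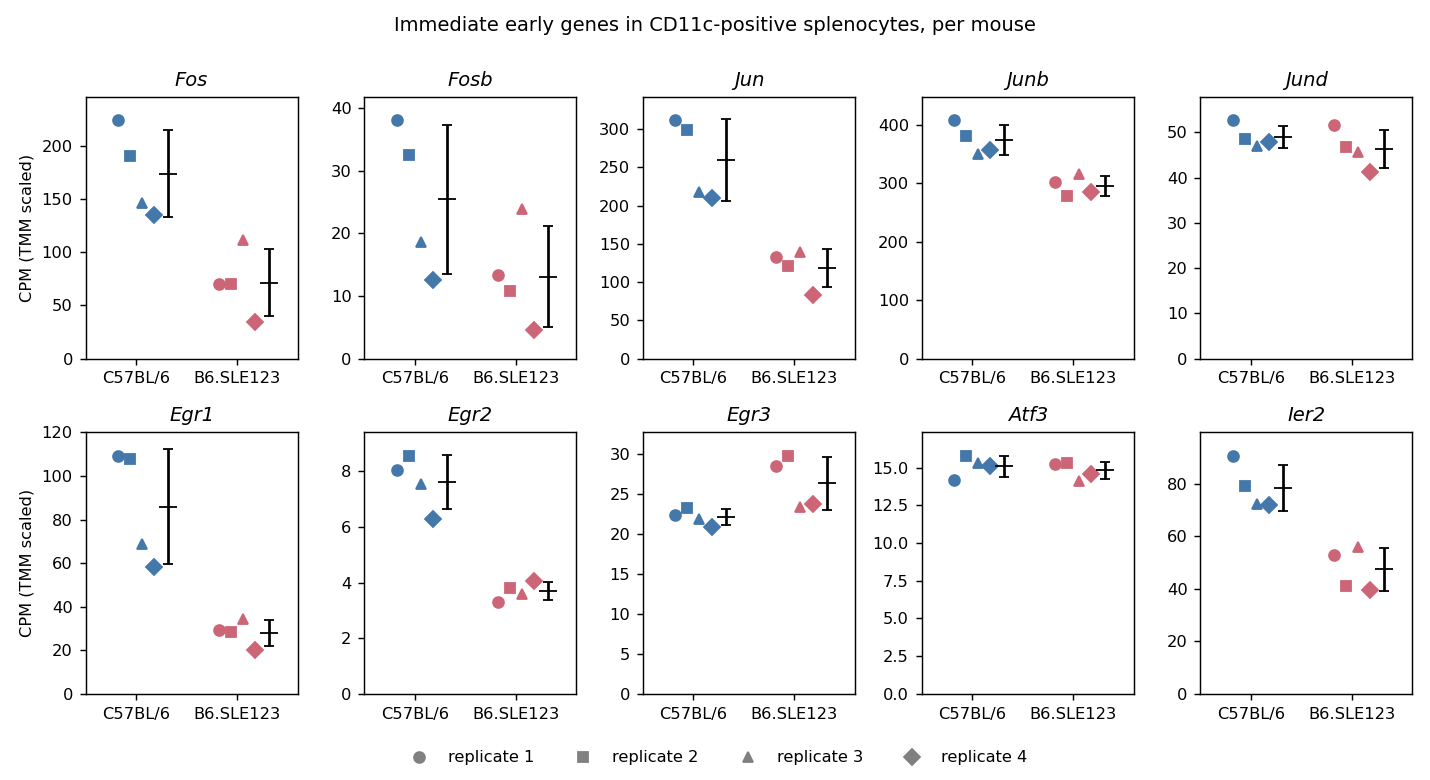
CPM (y axis, from 0) of each gene in the 4 C57BL/6 and 4 B6.SLE123 mice, with a symbol for each replicate and the mean and SD beside them. Egr1, Jun, Egr2 and Ier2 show a clear gap between the strains, whereas Fosb, Jund and Atf3 overlap.

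The genes changed unequally. Each of the other 9 genes was set against Jund within the same mouse, as a difference in log2 CPM in which the library scaling nearly cancels. The strains did not overlap for 7 of these 9 differences (p = 0.0286 in a two-sided exact permutation test, which cannot go lower with 4 mice against 4, and 0.0367 after adjustment over the 9 comparisons). The same 7 genes did not overlap in CPM, where 48.9% of all genes did not either. Jund itself differed little (log2 fold change -0.08), so these differences largely repeat that comparison. The share of all genes without overlap relative to Jund was not computed. On the log2 scale and relative to Jund, Egr1 fell by 1.51, from a mean of 0.76 in C57BL/6 mice to -0.75 in B6.SLE123 mice, and Fos fell by 1.29, from 1.80 to 0.51. Jun fell by 1.05, Egr2 fell by 0.94, Ier2 fell by 0.65 and Junb fell by 0.26 relative to Jund, while Egr3 rose by 0.33. The differences for Fosb (-0.97, exact p = 0.143, adjusted 0.161) and Atf3 (0.06, exact p = 0.543) did not pass.

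Per length, the make-up of the Fos and Jun transcripts shifted toward Junb and Jund. Summed over Fos, Fosb, Jun, Junb and Jund, the level was 352 ± 47.9 RPKM in C57BL/6 mice and 226 ± 29.2 RPKM in B6.SLE123 mice (SD, n = 4). Junb made up 46.6% ± 3.28 of this sum in C57BL/6 mice and 57.3% ± 5.43 in B6.SLE123 mice, and Jund 8.43% ± 0.804 and 12.4% ± 1.23 (SD, n = 4). Fos made up 20.9% ± 2.10 and 13.1% ± 4.32, and Jun 23.0% ± 1.77 and 16.4% ± 1.86. Fosb was the least of them, at 1.12% ± 0.392 and 0.884% ± 0.451. For Fos, the share in each mouse was 23.4%, 21.6%, 19.8% and 18.6% in C57BL/6 mice and 12.7%, 13.6%, 18.3% and 7.75% in B6.SLE123 mice, so B6.SLE123 replicate 3 nearly reached the lowest control. These shares are a description and were not tested.

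Among the EGR transcripts, Egr1 and Egr3 came close to level in B6.SLE123 mice. Egr1 made up 76.5%, 75.5%, 68.0% and 66.3% of the summed RPKM of Egr1, Egr2 and Egr3 in C57BL/6 mice and 46.5%, 44.4%, 54.7% and 40.4% in B6.SLE123 mice. Egr3 made up 19.7% ± 4.06 against 45.2% ± 5.06, and Egr2 8.67% ± 1.16 against 8.33% ± 1.71 (SD, n = 4). The sum itself was 26.4 ± 6.32 RPKM in C57BL/6 mice and 13.3 ± 1.52 RPKM in B6.SLE123 mice.

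**Figure D3:**
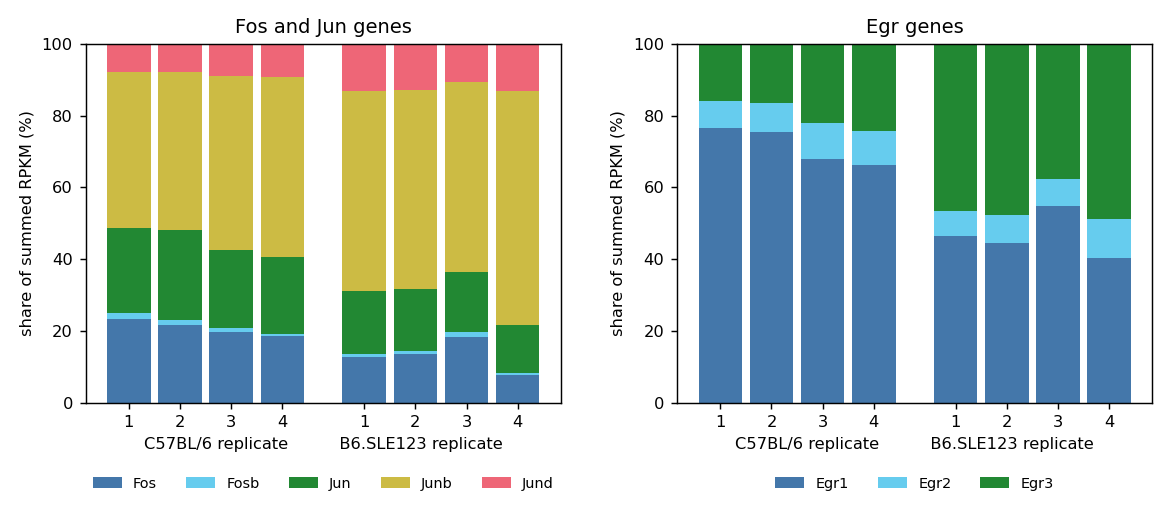
Share (%) of each gene in the summed RPKM of the Fos and Jun genes (left) and the Egr genes (right), 1 bar per mouse. The Junb and Jund parts are taller in B6.SLE123 mice, and Egr3 takes from 37.7% to 48.8% of the Egr sum there against 16.01% to 24.2% in C57BL/6 mice.

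Mice of 1 strain also differed from each other in these genes, more than in most genes. The SD of log2 CPM within strains was 0.87 for Fosb, 0.55 for Fos, 0.40 for Egr1 and 0.32 for Jun, beside a median of 0.09 over the 10620 genes with a mean of at least 100 counts. These values were above those of 99.9%, 99.6%, 98.6% and 96.8% of these genes. Junb (0.09), Jund (0.11) and Atf3 (0.06) varied about as little as the typical gene. In B6.SLE123 mice, the highest CPM was 5.30 times the lowest for Fosb and 3.22 times for Fos, and only 1.08 times for Atf3.

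The same mice stood high or low for Fos, Fosb, Jun, Egr1 and Ier2. In each of these 5 genes C57BL/6 replicate 1 was the highest and replicate 4 the lowest control, and B6.SLE123 replicate 3 was the highest and replicate 4 the lowest of its strain. Over all 10 genes, C57BL/6 replicate 4 was the lowest control for 7, beside 25.1% of the 10620 genes, and B6.SLE123 replicate 3 the highest of its strain for 6, beside 22.2%. B6.SLE123 replicate 4 had the smallest total count, 25563070, while C57BL/6 replicate 4 with 30363789 did not. Within the B6.SLE123 strain, the summed level of the red pulp macrophage markers was highest in replicate 4, at 4232 CPM, against 3756 CPM in replicate 3, 2199 CPM in replicate 2 and 2840 CPM in replicate 1. In C57BL/6 mice the sum was 16230, 14590, 18780 and 16190 CPM in replicates 1 to 4. The part of total count or of these markers in the order of the mice was not tested. Without B6.SLE123 replicate 4, 6 of the 10 genes were still lower and 1 higher, with log2 fold changes of -1.50 for Egr1 and -1.07 for Fos.

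**Figure D4:**
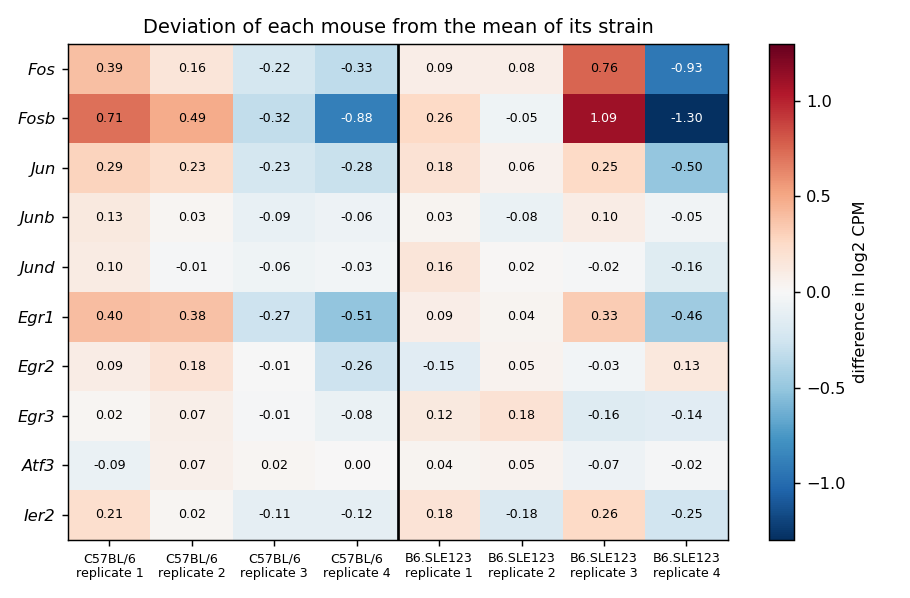
Difference in log2 CPM of each mouse (columns) from the mean of its strain for each gene (rows), red above and blue below the mean. B6.SLE123 replicate 4 reaches -1.30 for Fosb and -0.93 for Fos while replicate 3 reaches 1.09 and 0.76, and the rows of Junb, Jund and Atf3 stay pale.

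Other immediate early genes moved in both directions, more of them down. Of 46 listed genes, 44 were in the table, and 21 passed as lower and 9 as higher in the lupus-prone strain, beside 26.6% and 26.7% of all genes. Their median log2 fold change was -0.15. More than 2-fold falls were found for 9 of them, beside 8.29% of all genes, and more than 2-fold rises for 0. The largest falls were in Sgk1, a kinase induced by serum and glucocorticoids (131 ± 10.9 against 41.1 ± 5.04 CPM, SD, n = 4, log2 fold change -1.67), and in Rhob, a short-lived small GTPase (-1.54). Zfp36, which encodes the mRNA-destabilizing protein tristetraprolin, was at 852, 802, 704 and 748 CPM in C57BL/6 mice and at 324, 304, 392 and 268 CPM in B6.SLE123 mice. It fell without overlap, with a log2 fold change of -1.27 (adjusted p = 2.89e-06, edgeR's test). Fosl2, another Fos relative, fell by 1.05, and the orphan nuclear receptor gene Nr4a1 fell by 0.88 on the log2 scale.

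The largest rises on this list were in the nuclear receptor gene Nr4a3 (43.9 ± 4.36 against 79.2 ± 12.9 CPM, SD, n = 4, log2 fold change 0.85, adjusted p = 7.51e-05, edgeR's test) and in Socs3, a feedback inhibitor of cytokine signalling (0.60). Nr4a1 and Nr4a3 thus differed in direction, as Egr1 and Egr3 did. Klf2, a factor linked to quiescence, fell by 0.71, while its relative Klf6 had a log2 fold change of -0.04 (adjusted p = 0.431, edgeR's test). Dusp1, a phosphatase that switches off MAP kinases, was at 237, 223, 165 and 198 CPM against 182, 162, 341 and 167 CPM. Its strains overlapped (log2 fold change 0.05, adjusted p = 0.864, edgeR's test), and its highest value, as for Fos and Fosb within B6.SLE123, was in replicate 3. On the whole list B6.SLE123 replicate 3 was the highest of its strain for 22 of 44 genes, beside 22.2% of the 10620 genes averaging at least 100 counts. Replicate 2, not 4, was the lowest for 26, beside 25.8%.

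Genes acting upstream of Fos and Egr1 passed the test about as often as all genes. Of 17 genes of the MAP kinase and serum response factor pathways, 7 rose and 3 fell, or 58.8% in either direction beside 53.4% of all genes. None changed more than 2-fold, and the median log2 fold change was 0.05. Srf, the serum response factor gene and a member of the list of other immediate early genes, rose (78.7 ± 1.28 against 94.1 ± 3.36 CPM, SD, n = 4, log2 fold change 0.26), and its coactivator gene Mrtfa rose by 0.25. Rps6ka3, which encodes a ribosomal S6 kinase downstream of ERK, rose by 0.34. Mapk8, encoding JNK1, which phosphorylates c-Jun, fell by 0.49, and the JNK kinase gene Map2k7 fell by 0.24. Of 10 genes listed as EGR regulators or targets, 3 rose and 3 fell, a share near the 53.4% of all genes. The EGR corepressor gene Nab1 rose by 0.29, while Nab2 had a log2 fold change of -0.02 (adjusted p = 0.869, edgeR's test). The adhesion receptor gene Cd44 fell by 1.02 and Id3 fell by 0.78, and the cell cycle inhibitor gene Cdkn1a rose by 0.47.

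Of 16 genes for other leucine zipper factors that can pair with or resemble AP-1, 9 fell and 4 rose, beside 26.6% of all genes lower and 26.7% higher. Maf, a factor of macrophages and some T cells, fell with a log2 fold change of -2.48. The median of the red pulp macrophage markers was -2.40, and a link between the 2 falls was not tested. Atf6 (0.31) and Atf2 (0.20) rose most. Batf3, which type 1 conventional dendritic cells need, fell by 0.14 (adjusted p = 0.0384, edgeR's test), although 6 of the 8 markers of these cells rose.

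Heat shock genes, which also react to the isolation of cells, moved the other way. Of 14 listed genes, 10 rose and 1 fell, beside 26.7% and 26.6% of all genes, and the median log2 fold change was 0.40. Hsph1, a chaperone gene, rose from 51.2 ± 7.54 to 105 ± 19.4 CPM (SD, n = 4, log2 fold change 1.04, adjusted p = 6.18e-05, edgeR's test). Hspa1a and Hspa1b, near-identical copies whose reads cannot be assigned with certainty, rose by 0.87 and 0.93 with overlap between the strains. Dnajb4, a cochaperone gene, fell by 0.33. Within B6.SLE123 mice, replicate 4 was the lowest for 11 of the 14 heat shock genes and replicate 3 the highest for 9. These were the same ends of that strain as for Fos. The controls matched Fos at the low end only. There, replicate 4 was the lowest for 8 of the 14 genes (25.1% of the 10620 genes), but replicate 3 was the highest for 10 (24.0%). Replicate 1, the highest control for Fos, was the highest for 1 (21.7% of the 10620 genes). A shared cause of these orders was not tested. For Hspa1a the values were 61.3, 71.9, 41.7 and 22.6 CPM in C57BL/6 mice and 72.5, 100.4, 126 and 59.9 CPM in B6.SLE123 mice.

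**Figure D5:**
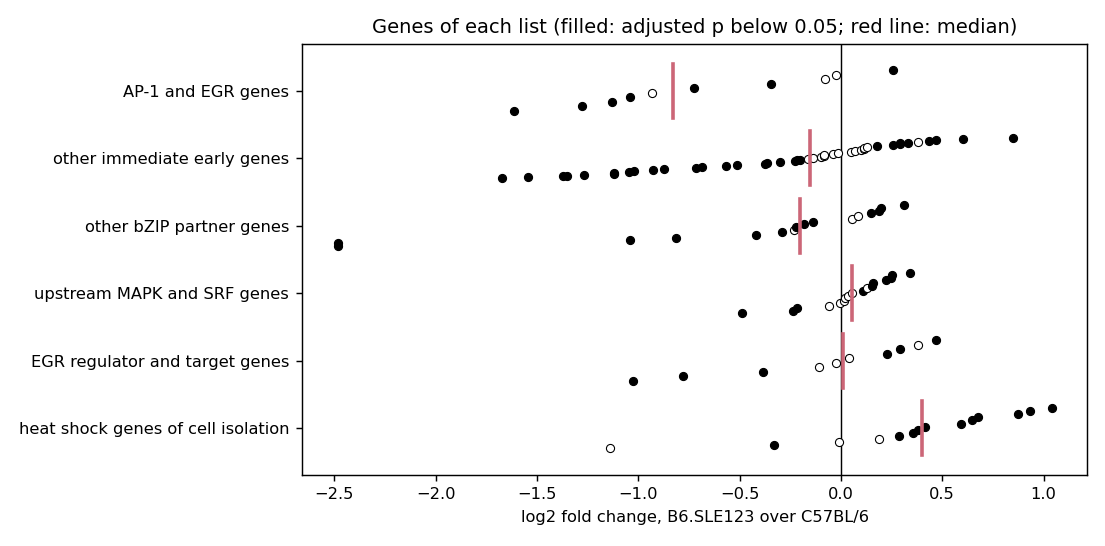
Log2 fold change (B6.SLE123 over C57BL/6, x axis) of the 10 genes and of each list, 1 point per gene, filled at an adjusted p below 0.05, with the median as a red line. The median is -0.83 for the AP-1 and EGR genes, -0.15 for other immediate early genes and 0.40 for heat shock genes.

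The 10 genes lie on 8 chromosomes in mm10. Fos is on chromosome 12 (85473890 to 85477273), Fosb on 7 (19302696 to 19310051), Jun on 4 (95049034 to 95052222), Egr1 on 18 (34859823 to 34864984), Egr2 on 10 (67535475 to 67542188), Egr3 on 14 (70077203 to 70082614) and Atf3 on 1 (191170296 to 191218039). Jund, Ier2 and Junb are all on chromosome 8, starting at 70698949, 84661331 and 84974484. Intervals of the lupus-prone strain were not mapped here. Whether Atf3 on chromosome 1, Jun on chromosome 4 or Fosb on chromosome 7 lies in one was therefore not tested. Of 299 other genes starting within 1 Mb of any of the 10, 55.5% passed the test, beside 53.4% of all genes, and their median log2 fold change was -0.06. Near Jun, 5 of 8 neighbours passed, 3 higher and 2 lower, and near Fosb 31 of 46 passed, 11 higher and 20 lower. Atf3 itself did not pass, while 13 of its 18 neighbours did. By the rule for naming neighbours, Ceacam19 near Fosb had 60, 36, 51 and 45 counts in C57BL/6 mice and 1, 0, 2 and 0 in B6.SLE123 mice, and Eqtn near Jun and Spata45 near Atf3 were also lower in B6.SLE123 mice with at most 30 counts in any mouse.

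The genes whose levels followed the mean profile of the 10 genes most closely over the 8 mice were Ikzf2, Qpctl, Zfp28, Xdh and Sipa1l2, out of 10610 genes. Likeness was the root mean square difference between log2 CPM profiles centred on each gene's mean, which was 0.09 for Ikzf2 and 0.13 for Qpctl beside a median of 0.45. The genes were picked for the smallest difference, so their closeness follows from the choice and was not tested. Ikzf2, the gene of the transcription factor Helios, was 0.57 above its own mean in C57BL/6 replicate 1 and 0.81 below it in B6.SLE123 replicate 4, where the mean profile stood at 0.58 and -0.72.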

How the data were processed

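RNA of CD11c-positive splenocytes of 8 mice was sequenced. The authors used cutadapt for trimming, STAR for alignment against mm10 and featureCounts for counting, and they deposited raw counts, not normalized. The table lists protein-coding genes whose larger strain median was at least 5 counts. Its DESeq2 comparison (mean level, fold change and p-values) was not used.

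After TMM scaling, the quasi-likelihood F test of edgeR 4.0.16 (run in R 4.3.3) compared the strains on 13786 genes without a filter, with Benjamini-Hochberg adjustment. Standard errors are the log2 fold change divided by the square root of F. A prior count of 2 entered log2 CPM, and RPKM values divide CPM by the exonic length in GENCODE M21. Values compared within mice were tested with exact permutation tests. Files do not say whether counting used strand, and the sources used here do not say whether both strains were processed together. The p-values measure the spread between these 8 mice. Counting error is part of that spread, most of all for Egr2, whose lowest count was 103.

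The genes, the lists and the naming rule were chosen with earlier results of these data known. The rule named the 10 genes, 10 fixed genes, the 2 largest rises and 2 largest falls of each list averaging 100 or more counts in whichever strain was higher, the 5 closest profiles and the most changed neighbours on chromosomes 1, 4 and 7. Prdx2, which overlaps Junb, was added, and 1 gene that the rule named is not reported here. Listed symbols matched the table for all but 4 genes, 3 of them by a synonym. Batf3, Csf1r, Dusp4 and Nr4a1 each stand in 2 lists. Further marker lists gave medians of -0.58 for B cells (7 of 10 lower), 0.73 for type 1 and 0.10 for type 2 conventional dendritic cells, -0.01 for plasmacytoid dendritic cells, -0.12 for monocytes, -0.63 for neutrophils, -0.34 for NK cells, -0.32 for T cells and -2.75 for erythroid cells. Alternatives were relative log expression factors, at least 10 counts in every sample, a replicate block, DESeq2 1.42.0, limma-voom (limma 3.58.1) and each mouse left out.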

Additional observations from a re-analysis of the deposited data

How the results depend on the processing

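Of 130 values for single genes under the alternatives, 123 stayed on the same side of the threshold as in the results, and none changed direction. The exceptions were those of Egr3 and Fosb in fits without a mouse, given with the results, and Fosb with the replicate block. The mouse numbers are shared between the strains, and the labels do not say whether they mark pairs. Deviations of same-numbered mice correlated at 0.06, 0.23, 0.07 and 0.14 over genes, and not every mouse correlated best with its own number. These weak positive values cannot settle whether same-numbered mice were handled together. With the replicate block 8 of the 10 genes passed against 7, Fosb being added (log2 fold change -1.02, adjusted p = 0.0189, edgeR's test). Requiring a more than 2-fold change left 4 genes, by construction of the threshold. Across the 8 fits without a mouse, from 6 to 8 genes passed, from 6 to 7 lower and from 0 to 1 higher. The median log2 fold change was from -0.95 to -0.66, and the other immediate early genes called lower were from 19 to 21 and those called higher 9. Differences from Jund without overlap were from 7 to 8. DESeq2, limma-voom, relative log expression factors and at least 10 counts in every sample gave 7 genes, as in the results. The most sparsely counted of the 10 genes was Egr2, with 103 counts in B6.SLE123 replicate 4.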
